A study of Caenorhabditis elegans with 6 samples.

Results

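The genes described here encode the AMP-activated protein kinase (AMPK) of the nematode Caenorhabditis elegans, its upstream kinase and one of its substrates. They are 8 of the 20422 genes in the authors' deposited table. They were chosen by name and not by a rule on measured values, though earlier results of these data were known. Of these, 7 were found by their public name (aak-1, aak-2, aakb-1, aakb-2, aakg-1, aakg-2 and par-4), and 1, crtc-1, was found by its gene ID because the table lists it as Y20F4.2. RNA was measured in whole sterile adults of 2 genotypes with 3 samples each, and each sample held 100 worms picked by hand. The controls carried mes-1(bn84ts), a temperature-sensitive allele whose worms fail to form a germline. The double mutants, daf-2(e1370); mes-1(bn84ts), carried in addition an allele that weakens the insulin/IGF-1 receptor, so both groups shared the loss of the germline. Embryos of both genotypes were laid at 24°C, kept at 15°C from day 1, returned to 24°C as adults on day 5 and collected on day 6. The comparison addresses what reduced insulin signalling changes in the RNA of worms without a germline.

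AMPK is a complex of a catalytic alpha, a scaffolding beta and a regulatory gamma subunit. The gamma subunit binds AMP, ADP and ATP, and when cellular energy falls the complex is activated by nucleotide binding and by phosphorylation of the alpha subunit by the kinase LKB1, called PAR-4 in the worm. Active AMPK restrains fat synthesis and growth and favours fuel use. In C. elegans the alpha subunit AAK-2 is needed for the full long life of daf-2 mutants, and it phosphorylates CRTC-1, a coactivator of the transcription factor CREB, which keeps CRTC-1 out of the nucleus. Much of this control acts on the proteins, which an RNA table does not measure.

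The authors' deposited table gives, for each gene, a mean normalized count over all 6 samples, a log2 fold change of double mutants over controls with its adjusted p from DESeq2, and 1 RPKM (reads scaled to gene length and library size) for each genotype. It holds no value for a single sample, so the spread between samples is known only through the adjusted p. From that p an upper bound of the unadjusted p was derived, and from the bound the largest standard error (SE) the deposited test allows, which gives the widest 95% interval. The labels do not say whether the 3 samples of a genotype came from separate cultures, so this spread may be technical. The depth of each sample is unknown. The intervals hold for the deposited fold changes, which at low counts can lie nearer 0 than the RPKM ratios. For nos-2, a germline gene with a mean normalized count of 5.95, the log2 fold change was -1.91. Its log2 RPKM ratio, with 0.1 added to each RPKM, was -3.55. Whether the deposited fold changes were shrunken towards 0 was not tested. The mean normalized counts of all genes summed to 2613059, of which the 8 AMPK genes took 0.0371%. Gene positions are those of the table, whose genome build is not stated there or in the labels. Only 2.7% of its genes share a start or end with the WBcel235 annotation, so they are not positions of that annotation.

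None of the 8 AMPK genes was called at an adjusted p under 0.05 by DESeq2 in the authors' deposited table, where 10.3% of all 9820 tested genes were called. All 8 had an adjusted p, and their mean normalized counts ran from 31.7 (par-4) to 255 (aakg-1). Their log2 fold changes ran from -0.82 to 0.57 in the authors' deposited table, with 4 above and 4 below 0 and a median of -0.01, where the median of all genes was -0.03. The median absolute log2 fold change was 0.29 over the 8 AMPK genes and 0.29 over all genes with an adjusted p. Over the 9 subunit genes, with aakg-3, aakg-4 and aakg-5 added and par-4 and crtc-1 left out, it was 0.57, and 2 were called higher. The upper bound of the unadjusted p was under 0.05 for 3 of the 8, namely aak-1, aakg-2 and aakb-1, and for 18% of all genes. Since the widest 95% interval is built from that bound, it left out 0 for these same 3 genes, none of which passed the adjusted threshold. For the other 5 genes the widest 95% interval included 0 and stayed within a doubling or halving, a log2 fold change between -1 and 1. Since the RNA is that of whole worms, fewer cells of a type and less RNA per cell cannot be told apart in any of these values.

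**Figure D1:**
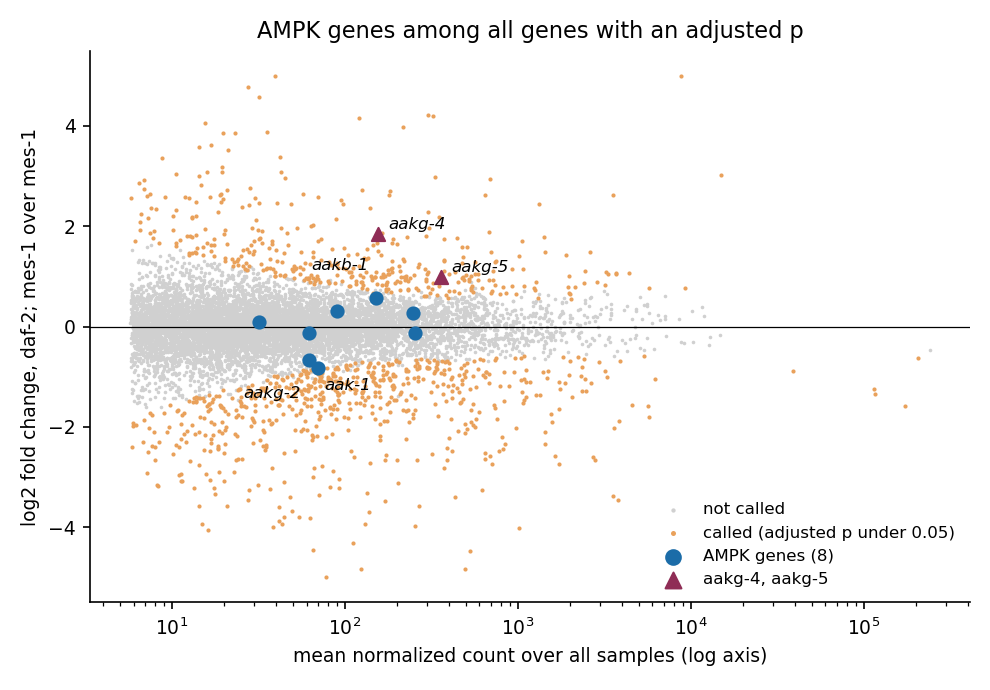
Log2 fold change of double mutants over controls (vertical axis) against the mean normalized count over all samples (horizontal log axis) for the 9820 genes to which the authors' deposited table gives an adjusted p. Orange points have an adjusted p under 0.05, the 8 blue points are the AMPK genes, all between -0.82 and 0.57 and none called, and the triangles are the called gamma subunit genes aakg-5 (0.98) and aakg-4 (1.85).

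The size of change that the deposited test could call depended on the read number, so the calls are read against genes of like abundance. Of the 8 AMPK genes, aak-1, aakb-2, aakg-2, par-4 and crtc-1 had a mean normalized count between 30 and 100, and aak-2, aakb-1 and aakg-1 had one between 100 and 300. In the lower of these bands 278 of 2953 genes (9.41%) were called, and the smallest called change was an absolute log2 fold change of 0.80. In the upper band 238 of 1578 genes (15.1%) were called, and the smallest called change was 0.60. The values of aakg-2 and aakb-1 lay under these smallest called changes, and that of aak-1 lay just above.

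The catalytic alpha subunits had values on opposite sides of 0. For aak-1, the authors' deposited table gave an RPKM of 18.2 in controls and 9.82 in double mutants. Its log2 fold change there was -0.82 (SE at most 0.31), with an adjusted p of 0.0737 (DESeq2). This value is the farthest from 0 of the 8 AMPK genes and the one nearest to a call. Its widest 95% interval on the log2 scale reached from -1.43 to -0.21. The gene lies on chromosome III from 8756906 to 8761009, and its exons overlap those of sma-2, a Smad gene on the opposite strand. The library kit does not mark strand, so reads from the shared stretch cannot be told apart. For sma-2 the authors' deposited table gave -0.11 (adjusted p = 0.968, DESeq2), with RPKM values of 6.39 and 5.58, below those of aak-1 in both genotypes.

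The other alpha gene, aak-2, was the more abundant of the pair in both genotypes. The authors' deposited table gave it an RPKM of 41.8 in controls and 50.6 in double mutants. Its log2 fold change was 0.28 (SE at most 0.22, adjusted p = 0.64, DESeq2, per the authors' deposited table). The widest 95% interval, from -0.15 to 0.70, leaves out a doubling and any fall beyond 0.904-fold. The gene lies on chromosome X from 16796014 to 16803299, and mec-4, a touch receptor channel gene on the opposite strand that overlaps its exons, averaged only 4.12 normalized counts per the authors' deposited table. The widest 95% intervals of aak-1 and aak-2 do not overlap, with a gap from -0.21 to -0.15, but the difference between the genes could not be tested without values per sample. Per length, the RPKM of aak-2 was 2.3 times that of aak-1 in controls and 5.15 times in double mutants, and the share of aak-1 in the summed alpha RPKM was 30.3% and 16.3%. The sums themselves were close, 60.1 and 60.4.

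Both scaffolding beta subunits had values above 0 without a call. For aakb-1, on chromosome X from 13755701 to 13759323, the authors' deposited table gave an RPKM of 54.7 in controls and 78.4 in double mutants. Its log2 fold change of 0.57 (SE at most 0.25, adjusted p = 0.163, DESeq2) was the highest of the 8 genes in the authors' deposited table, with a widest 95% interval from 0.08 to 1.07. For aakb-2, which lies on chromosome III from 11237050 to 11238033, the authors' deposited table has 37.3 and 48.5 RPKM and a log2 fold change of 0.31 (SE at most 0.27, adjusted p = 0.725, DESeq2). The beta genes thus kept similar proportions, with aakb-1 at 59.5% of the summed beta RPKM in controls and 61.8% in double mutants. No exon of another gene in the table overlaps either of them. Their longest annotated proteins are nearly the same length, 269 residues for AAKB-1 and 274 for AAKB-2.

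The regulatory gamma genes among the 8 had values below 0. For aakg-1, the most counted of the 8, the authors' deposited table gave an RPKM of 50.1 in controls and 45.4 in double mutants, with a log2 fold change of -0.13 (SE at most 0.22, adjusted p = 0.912, DESeq2). It lies on chromosome III from 12538779 to 12547980 and has 7 annotated coding transcripts, with proteins of 372 to 801 residues, which the table does not separate. For aakg-2, on chromosome X from 16865995 to 16868960, RPKM was 19.3 in controls and 11.9 in double mutants per the authors' deposited table. Its log2 fold change was -0.67 (SE at most 0.30, adjusted p = 0.181, DESeq2, per the authors' deposited table), with a widest 95% interval from -1.26 to -0.08. After aak-1, this was the second lowest value of the 8 genes.

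The worm has other gamma genes, aakg-3, aakg-4 and aakg-5, and the latter 2 were called higher in the authors' deposited table, while no gene of the alpha, beta or gamma class among the 8 was called. As background, aakg-4 has been reported in C. elegans as a target of DAF-16, the FOXO factor that daf-2 signalling restrains, and as encoding an atypical gamma subunit. It rose 3.6-fold (log2 fold change 1.85, SE at most 0.24, adjusted p = 1.89e-12, DESeq2), and the authors' deposited table lists 23.2 RPKM in controls and 89.4 in double mutants. Its exons overlap hum-6, a myosin gene read in the other direction, which has -0.63 in the authors' deposited table (adjusted p = 0.369, DESeq2). The gene aakg-5 rose 1.97-fold (log2 fold change 0.98, SE at most 0.21, adjusted p = 1.29e-04, DESeq2), from an RPKM of 50.4 to 99.8 in the authors' deposited table. The third, aakg-3, was near the lower end of detection at RPKM values of 1.95 and 1.98, with a log2 fold change of 0.06 (SE at most 0.57, adjusted p = 0.989, DESeq2, per the authors' deposited table). The widest 95% intervals of aakg-1 (-0.56 to 0.30) and aakg-2 do not overlap those of aakg-4 (1.38 to 2.32) and aakg-5 (0.56 to 1.40), although no test of the difference between genes could be made.

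The makeup of the gamma class differed between the genotypes. The genes aakg-1 and aakg-2 held 34.6% and 13.3% of the summed gamma RPKM in controls, and 18.3% and 4.77% in double mutants. The summed RPKM of aakg-4 and aakg-5 was 1.06 times that of aakg-1 and aakg-2 in controls and 3.3 times in double mutants. The summed RPKM of all 5 gamma genes was 145 in controls and 248 in double mutants, a ratio of 1.71, against 1.38 for the beta genes and 1.0 for the alpha genes. These sums rest on 1 value per genotype and have no error, and RNA of whole worms does not show which subunits are made in the same cells.

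**Figure D2:**
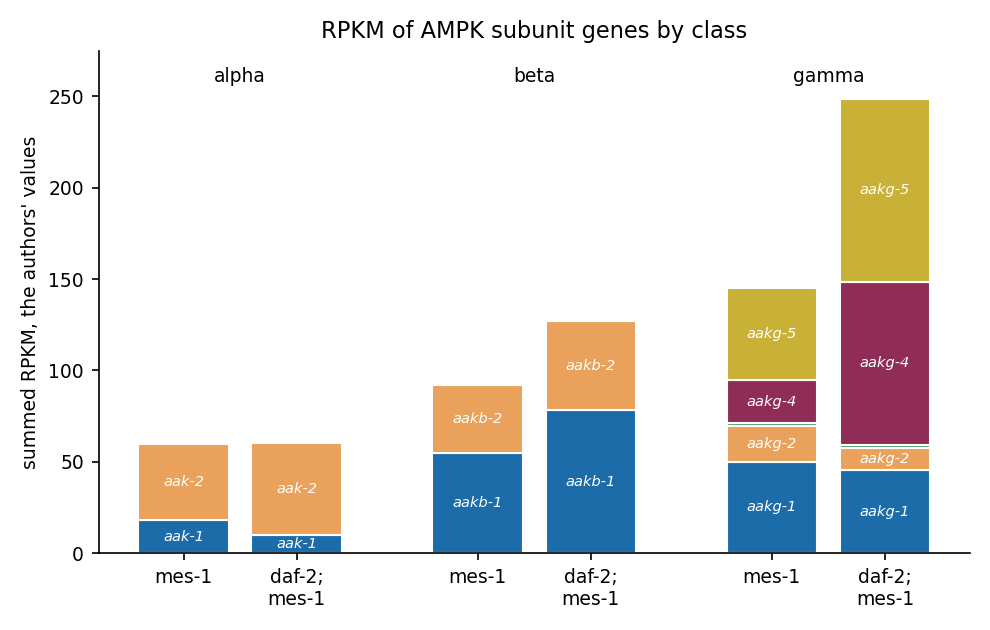
Summed RPKM (vertical axis, from 0) of the alpha, beta and gamma subunit genes in each genotype, each bar stacked by gene from the authors' value per genotype, with no error available. The alpha bars are alike in height (60.1 and 60.4), while the gamma bar is 145 in controls and 248 in double mutants, and aakg-4 and aakg-5 make up the added part (the thin unlabelled band is aakg-3).

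Upstream of AMPK, par-4 was the least abundant of the 8 genes. The authors' deposited table gave it an RPKM of 4.71 in controls and 5.44 in double mutants, with a log2 fold change of 0.10 (SE at most 0.38, adjusted p = 0.968, DESeq2). With a mean normalized count of 31.7 its widest 95% interval, from -0.64 to 0.84, is the broadest among the 8 genes on the log2 scale, and it leaves in every change from 0.643-fold to 1.79-fold. It is located on chromosome V from 18098648 to 18106840. Downstream, crtc-1 on chromosome I from 2026319 to 2033951 had an RPKM of 11.2 in controls in the authors' deposited table and 0.98 times that in double mutants, the closest pair of the 8 genes. Its log2 fold change was -0.13 (SE at most 0.30, adjusted p = 0.945, DESeq2, per the authors' deposited table), with a widest 95% interval from -0.72 to 0.47.

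Ordered by RPKM, which is per length, the 8 genes stood in controls from high to low as aakb-1, aakg-1, aak-2, aakb-2, aakg-2, aak-1, crtc-1 and par-4. In double mutants the order was aakb-1, aak-2, aakb-2, aakg-1, aakg-2, crtc-1, aak-1 and par-4. The genes aakb-1 and par-4 held the ends of the order in both genotypes, and aak-1 stood above crtc-1 in controls and below it in double mutants. With 1 value per genotype it cannot be said which neighbours in the order differ beyond the spread between samples. All 8 lay above the middle of the table, from percentile 62.1 (par-4) to 92.7 (aakb-1) of the RPKM summed over the genotypes.

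**Figure D3:**
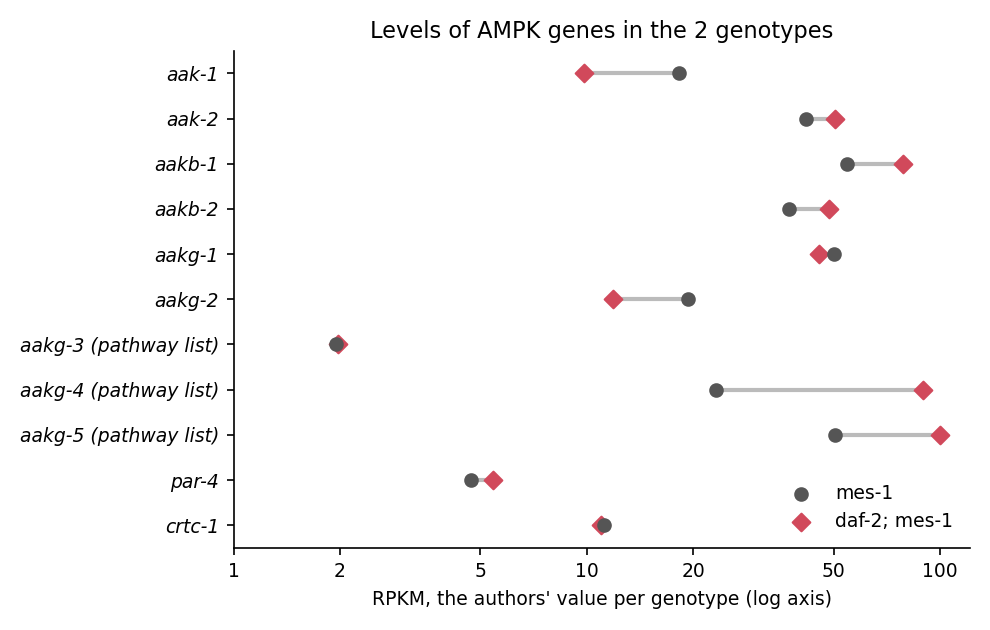
RPKM (horizontal log axis) of the 8 AMPK genes and of the other gamma genes aakg-3, aakg-4 and aakg-5 in mes-1 controls (grey circles) and daf-2; mes-1 double mutants (red diamonds), 1 value of the authors per genotype with no error. The grey line joins the values of a gene, and it is longest for aakg-4 (23.2 to 89.4), followed by aakg-5 (50.4 to 99.8) and aak-1 (18.2 to 9.82).

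The genes around AMPK were read from 8 lists of 38 genes, of which 36 had an adjusted p, and 3 of these were called higher and 0 lower in the authors' deposited table, where 3.92% of all genes were called higher and 6.35% lower. Besides aakg-4 and aakg-5 the called gene was pod-2, which encodes acetyl-CoA carboxylase, the enzyme of fatty acid synthesis that AMPK inhibits by phosphorylation. It rose 1.71-fold (log2 fold change 0.77, SE at most 0.24, adjusted p = 0.0164, DESeq2), and the authors' deposited table lists 395 RPKM in controls and 685 in double mutants. Its exons overlap W09B6.4 on the opposite strand, with 6.91 and 13.4 RPKM in the authors' deposited table. The other 6 AMPK substrates and metabolic targets (atgl-1, unc-51, daf-16, sbp-1, daf-15 and hlh-30) were not called. The median log2 fold change of that list was 0.20. By mean normalized count, the bands that hold aakg-4 (156), aakg-5 (358) and pod-2 (9230) had 15.1%, 22.1% and 29.3% of genes called in either direction.

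Partners of PAR-4 and of CRTC-1 had no called gene. Of the 5 genes for the LKB1 complex partners and the upstream kinase CKK-1, 4 had an adjusted p, and their log2 fold changes lay between -0.18 (ckk-1) and -0.03 in the authors' deposited table. Among the 5 CRTC-1 partners, which include CREB (crh-1), calcineurin (tax-6 and cnb-1) and the 14-3-3 proteins FTT-2 and PAR-5, the largest absolute value was that of par-5 at -0.42 (adjusted p = 0.239, DESeq2, per the authors' deposited table). Over the CRTC-1 partners the median was 0.07. Of the 5 AMPK-related kinases, 4 had an adjusted p, with log2 fold changes from -0.22 (unc-82) to 0.21 in the authors' deposited table, and none was called.

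The remaining lists also had 0 called genes. In the TOR branch, the growth pathway that AMPK restrains, 6 of 6 genes were not called. The largest value there was that of the folliculin gene flcn-1 at 0.77 (SE at most 0.30, adjusted p = 0.089, DESeq2, per the authors' deposited table). Of 4 enzymes of adenylate and phosphagen metabolism, which handle AMP and ATP, the arginine kinase gene argk-1 had the largest value at -1.16 (SE at most 0.60, adjusted p = 0.288, DESeq2, per the authors' deposited table), at RPKM values of 3.01 and 1.01. The 3 genes of mitochondrial fission and fusion had values above 0 in the authors' deposited table, up to 0.48 for drp-1 (adjusted p = 0.344, DESeq2). At an upper bound of the unadjusted p under 0.05, the 36 pathway genes with an adjusted p had 4 higher and 2 lower. Over all 9820 genes the count was 764 higher and 999 lower (18% in either direction). That background is not matched for abundance. At an adjusted p under 0.05, the share called rose from 5.53% at mean normalized counts under 30 to 29.3% at 1000 and above.

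**Figure D4:**
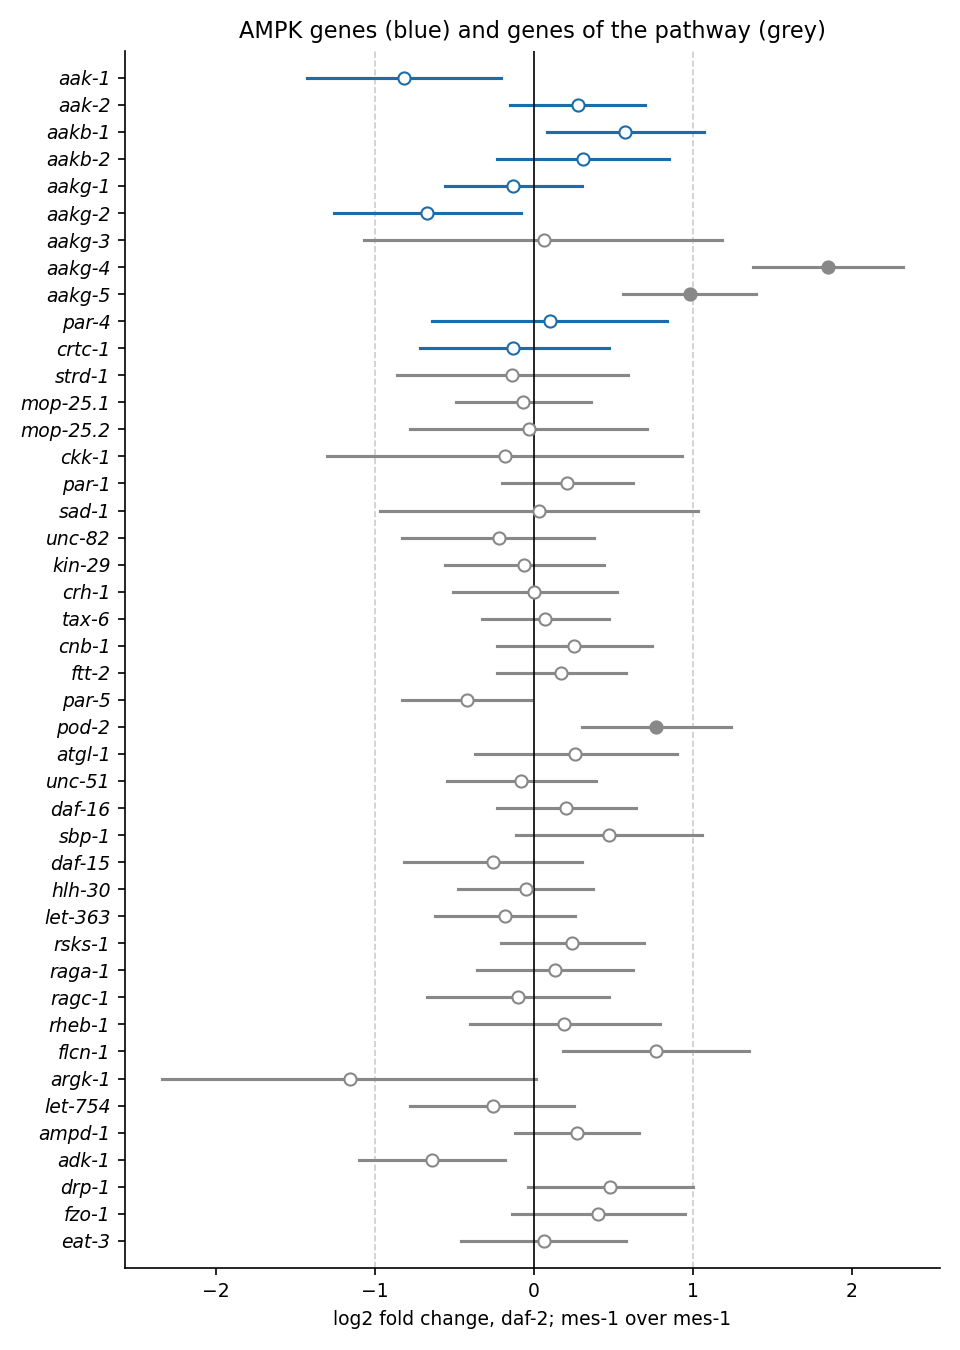
Log2 fold change of double mutants over controls (horizontal axis) with its widest 95% interval (lines) for the 8 AMPK genes (blue) and the 36 pathway genes with an adjusted p in that test (grey), filled where called. The filled points are aakg-4, aakg-5 and pod-2, and the blue intervals that leave out 0 are those of aak-1, aakb-1 and aakg-2.

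Markers of tissues differed unequally between the genotypes. Of 6 intestine markers 4 were called lower in the authors' deposited table, where 6.35% of all genes were called lower. The other 2, ges-1 and elt-2, were not called, at log2 fold changes of 0.37 (adjusted p = 0.574, DESeq2) and 0.06 (adjusted p = 0.979, DESeq2). The summed RPKM of the 6 was 1010 in controls and 502 in double mutants, of which act-5 held 562 and 192. The summed RPKM of 5 muscle markers was 794 and 957 with 1 called higher, where 3.92% of all genes were called higher. That of 6 neuron markers was 383 and 507, with 1 called higher (snb-1, 165 and 257). The neuron markers unc-64 (56.6 and 40.4) and rab-3 (14.0 and 13.2) had lower RPKM in double mutants. The sum of 4 hypodermis markers was 39.8 and 38.5. Only 2 of these, elt-3 and lin-26, had an adjusted p, with 0 called, while dpy-7 and rol-6 were listed at 0 in controls. Germline markers were low in both genotypes, with RPKM from 0.825 to 6.62 in controls and from 0.283 to 3.68 in double mutants over 10 genes. All of these genes had a lower RPKM in double mutants, at ratios from 0.0646 (nos-2) to 0.927 (glp-1). Of the 5 with an adjusted p, 1 was called lower (nos-2, adjusted p = 0.0262, DESeq2) and 0 higher. The log2 fold change of glh-1 was above 0, at 0.14 (adjusted p = 0.969, DESeq2). Residual germline RNA was thus not equal in the 2 genotypes. Of 6 sperm markers none exceeded 1.05, and msp-3 and msp-10 were listed at 0 in both. The part of these tissue differences in the values of the AMPK genes was not tested. The mutated genes carry alleles that need not alter their RNA, and the authors' deposited table gave log2 fold changes of 0.35 for daf-2 (adjusted p = 0.615, DESeq2) and 0.98 for mes-1 (adjusted p = 0.282, DESeq2).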

How the data were processed

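Whole sterile adults of 2 genotypes, 3 samples each, were compared through 1 table that the authors deposited. Per the labels' protocols, ribosomal RNA was depleted and the library kit was an unstranded one. TopHat2 and DESeq2 are named without versions in the submitters' processing notes. Per the file headers, the authors' signal column is the DESeq2 mean normalized count, the log2 column the fold change, and the p-value column its Benjamini-Hochberg adjusted p. The fold changes end at an absolute value of 5 and the adjusted p at 1e-20. The deposited RPKM, 1 per genotype, came from Cuffdiff2 per the file headers. Genome build, annotation and filters are not given in the sources used.

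A count test was planned for counts per sample. The table holds only the authors' comparison, so it is described as deposited, with no new test. A gene was called at an adjusted p under 0.05. The unadjusted p was bounded by inverting the adjustment, taking the 9820 genes with an adjusted p as all genes tested, and dividing the absolute log2 fold change by the matching normal quantile gave the SE bound (Python 3.11.15, pandas 2.3.3, scipy 1.17.1, checked on simulated data). Current symbols were taken by gene ID and were found for 19180 IDs. Exon overlaps and protein lengths come from Ensembl release 115 by gene ID. The 8 genes and the lists were chosen with earlier results of these data known. Named were the 8 genes, the other gamma genes, called pathway genes, the largest change of each list without a call, and the mutated genes. Genes of like pattern were not sought, since that needs values per sample. Further pathway genes, overlapping genes and markers are named to describe a list or overlap.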

Additional observations from a re-analysis of the deposited data

How the results depend on the processing

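No paired analysis was possible because the table holds no value for a single sample, and for the same reason no sample could be left out and no other normalization, filter on counts or count test could be run. Under an adjusted p of 0.1 the AMPK genes had 1 lower call (aak-1), the TOR branch 1 higher (flcn-1) and the adenylate enzymes 1 lower (adk-1). Over all 9820 genes, 493 were called higher and 706 lower at that threshold. Under 0.01 the AMPK substrates had 0 higher calls, since pod-2 was lost, and over all 9820 genes 262 were called higher and 471 lower. With the bound of the unadjusted p under 0.05, chosen after seeing the data, the AMPK genes had 1 higher and 2 lower, the CRTC-1 partners 1 lower, the TOR branch 1 higher and the adenylate enzymes 1 lower. Of all genes, 18% passed that bound in either direction. Without genes whose span overlaps another, the other gamma genes had 1 higher call (aakg-5) and the AMPK substrates 0, through the genes left out. In that setting 6 AMPK genes remained, none called, and the share of all genes called was not computed. Among genes with a mean of at least 50, 247 of all genes were called higher and 426 lower, as fewer genes were counted under the same adjusted p. No value of the 8 AMPK genes changed sign with RPKM ratios at a pseudocount of 0.1, 1 or 5 or relative to the median of all genes, and each moved by less than its SE bound. Depth limits par-4 most, whose SE bound was 0.38.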

Other observations

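The alpha gene aak-2 and the gamma gene aakg-2 lie near each other on chromosome X in the coordinates of the table, 62.7 kb apart with 9 other genes of the table between them. Per the authors' deposited table their log2 fold changes were 0.28 and -0.67, neither called by DESeq2. The adenosine kinase gene adk-1, whose enzyme makes AMP from adenosine, had an RPKM of 119 in controls and 72.5 in double mutants and a log2 fold change of -0.64 (SE at most 0.23, adjusted p = 0.0587, DESeq2, per the authors' deposited table). It was chosen after its value was seen.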
